A study of Mus musculus with 8 samples.

Results

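Epididymal white adipose tissue (eWAT) was set against liver within wild-type mice. The 4 libraries used, of 8 in the series, were all those labelled Crtc1+/+, with 2 from eWAT and 2 from liver, and each was chosen by its label alone. The donors were male C57BL/6 mice of 12 weeks that had fasted for 16 h on normal chow, and they were littermates of the CRISPR/Cas9 knockout line, with Crtc1 itself intact and no transgene or drug treatment in either group apart from the isoflurane anaesthesia that all donors had before death. RNA was taken from a piece of each organ, so each library mixed every cell type in that piece, and what part of the fat pad was cut is not given. The other 4 libraries, Crtc1-/- eWAT and liver of the same age and fast, stayed out of the main contrast. They entered a test of whether the contrast differed between genotypes, an alternative fit of all 8 libraries, and shares of counts given for comparison. In total 18311556 and 17616681 counts were deposited for eWAT 1 and 2, and 19721481 and 19572883 for liver 1 and 2.

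The epididymal fat pad of a male mouse is attached to the epididymis, the coiled duct in which sperm mature. Principal cells of that duct secrete proteins into its lumen in a pattern that changes along its length, clear and narrow cells acidify the fluid, basal cells lie under the epithelium, and a coat of smooth muscle moves the content. Adipocytes store triglyceride and release fatty acids in a fast, whereas the fasted hepatocyte oxidizes those fatty acids, makes ketone bodies and glucose, and secretes most plasma proteins. Levels below are CPM, counts brought to a common library size with TMM scaling, unless FPKM, which also divides by transcript length, is named. A gene was called higher or lower where edgeR's quasi-likelihood test gave an adjusted p under 0.05 and the absolute log2 fold change was over 1.

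The most abundant transcripts of the eWAT libraries belonged to the epididymal duct rather than to fat. Gpx5, a peroxidase secreted by the epididymal epithelium, was at 27310 and 33600 CPM in eWAT 1 and 2 against 2.11 and 1.72 in liver 1 and 2. It alone took 4.63% and 5.54% of all counts, the place that albumin held in liver with 10.94% and 12.43%. By mean FPKM, the 10 highest genes of eWAT were Gpx5 at 34980, the defensin-like Spag11b at 25100, the lipocalin Lcn8 at 15060, Defb25 at 13400, Defb48 at 11030, the cystatin Cst11 at 9757, Lcn2 at 8834, the chaperone clusterin (Clu) at 8653, a gene listed only by the number 105246811 at 7783, and the ribosomal gene Rps26 at 7274. No adipocyte gene was among these 10. The 10 highest in liver were all plasma protein genes apart from the uncharacterized Gm21320, and were led by Alb at 61180, Apoe at 31970 and Apoa2 at 28000 FPKM.

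Of 15034 genes that passed the expression filter, 8187 were called, so the background for any list is a called share of 54.5%, with 35% of the genes tested higher in eWAT and 19.4% higher in liver. The median log2 fold change over all genes was 0.48. It depended on the scaling, and the TMM factors were 1.7 and 1.65 in eWAT against 0.602 and 0.593 in liver. Scaling by library size alone raised that median by 1.48 and gave 10203 genes higher and 1139 lower, which is 90% of calls higher in place of 64.3%. Where this scaling turned the sign of a list's median, both values are given. Crtc1, the coactivator gene that the study deleted, was intact in these mice and at 21.8 and 22.4 CPM in eWAT and 19.2 and 16.2 in liver, a difference that was not called (adjusted p = 0.284).

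**Figure D1:**
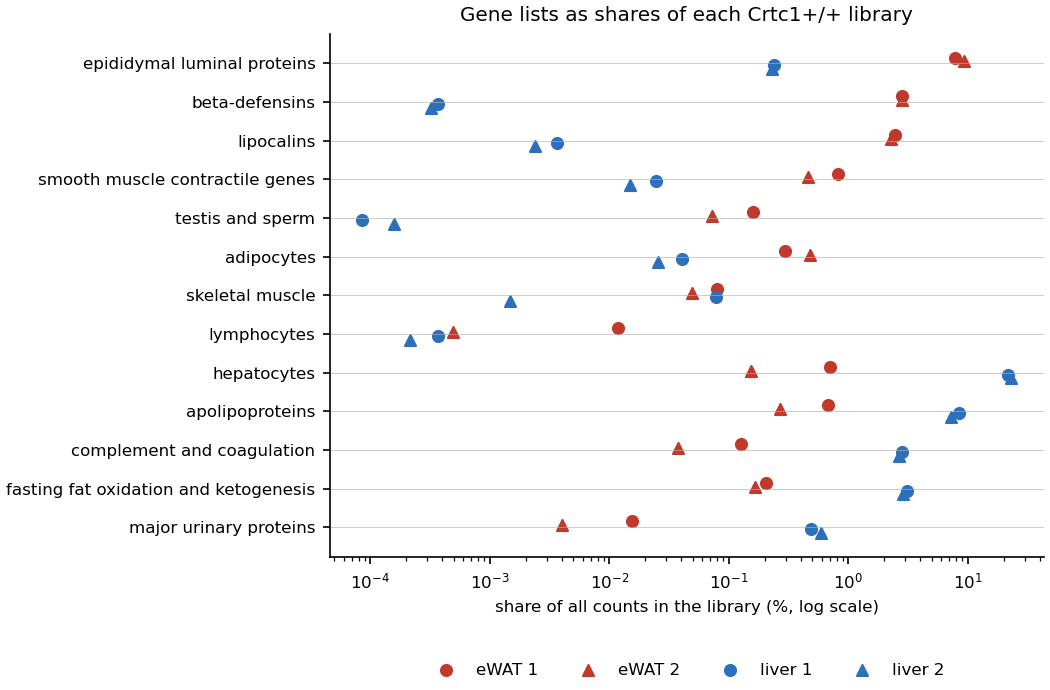
Each point is 1 Crtc1+/+ library, and the horizontal log axis gives the percent of all its counts that fell on the genes of a list (circle for library 1, triangle for library 2, red for eWAT, blue for liver). The lists of luminal proteins, beta-defensins and lipocalins sit at 2.27% to 9.23% in eWAT. Hepatocyte genes sit at 21.5% and 23.1% in liver, and the adipocyte list at 0.297% and 0.481% in eWAT.

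Genes for secreted proteins of the epididymal lumen were far higher in eWAT than in liver. Of 22 listed genes for luminal proteins, 20 were tested and 19 were called higher in eWAT, none lower, with a median log2 fold change of 12.17. Where a gene had no count in either liver library its fold is bounded only from below, against 3 counts in a library, and with those genes at their bound the median was 8.88. Together the list took 7.77% and 9.23% of the counts of eWAT 1 and 2. In liver it took 0.239% and 0.228%, nearly all of it clusterin, which hepatocytes also secrete. Clu was at 8496 and 8680 CPM in eWAT and 3871 and 3755 in liver, did not overlap between the tissues, as was so for 83% of all genes tested (50.5% with eWAT higher and 32.5% with liver higher), and missed the call (log2 fold change 1.17 ± 0.47 SE, adjusted p = 0.0769).

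Proteins that bind or modify the sperm surface were present at widely different levels. Adam7, a surface protein passed to sperm, was at 1360 and 3148 CPM in eWAT and 0.169 and 0.0862 in liver, which rests on 3 liver counts and gives a ratio of 17400 with a counting interval of 5960 to 84400. Teddm1a was at 1721 and 1892 CPM in eWAT against 0.421 and 0.345 (4720-fold). Crisp1, a cysteine-rich protein that coats sperm, was at 639.1 and 1087 CPM against 0.169 and 0.0862. Adam7 and Crisp1 were both higher in eWAT 2 than in eWAT 1, and in the list as a whole 7 of 19 called genes were over 1.5-fold higher in eWAT 2 and none in eWAT 1. Npc2, a cholesterol-binding protein that other tissues also make, was the mildest of the called members, at 896.9 and 1042 CPM in eWAT and 102.7 and 84.9 in liver (10.3-fold, adjusted p = 0.000738). At the other end, the PATE genes, which code for small cysteine-rich proteins of the male tract, had no liver count and were low in eWAT, from Pate2 at 18 and 29.1 CPM to Pate4 at 0.387 and 0.447, which was not called without liver 1 or liver 2.

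Beta-defensins, small cationic antimicrobial peptides of which the epididymis expresses an unusually large set, were called higher in eWAT in 35 of 35 tested genes out of 39 listed. Of the 35, 25 had no count in either liver library. The list made up 2.83% and 2.81% of the eWAT counts and 0.00037% and 0.000322% of the liver counts, and its median log2 fold change was 12.1 (7.68 with absent genes at their bound). Spag11b was at 7075 and 7751 CPM in eWAT against 0.169 and 0.603 in liver (19200-fold). Defb20 was at 2302 and 2328 CPM in eWAT, and its 3 liver counts gave a ratio of 18100 with a counting interval of 6200 to 87800. Defb23 at 363.8 and 305.9 CPM and Defb15 at 296.5 and 248.5 CPM had no liver count, so they were at least 1310-fold and 1070-fold higher. The ratio of eWAT 1 to eWAT 2 ran from 0.491 to 4.47 over these genes with a median of 1.08, and 5 were over 1.5-fold higher in eWAT 1 and 3 in eWAT 2. Defensin genes are similar in sequence, and reads may have been divided between neighbours by the counting tool.

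Defb48 and Defb47 are neighbours on chromosome 14 and are shown as examples of defensin promoters. Defb48 was at 1912 and 1980 CPM in eWAT with 1 count in each liver library, and Defb47 at 1061 and 1000 CPM with 1 liver count in all. The 250 bases before their starts, from RefSeq on GRCm38.p6, are given 5′ to 3′ on the coding strand, with the letters CCAAT, a common promoter element, in capitals where they occur on either strand.
Defb48, chr14:62984511-62984760, minus strand: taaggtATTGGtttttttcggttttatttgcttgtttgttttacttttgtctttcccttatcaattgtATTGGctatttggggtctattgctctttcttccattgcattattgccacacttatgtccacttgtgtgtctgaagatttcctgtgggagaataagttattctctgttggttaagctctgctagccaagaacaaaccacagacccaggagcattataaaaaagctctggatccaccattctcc
Defb47, chr14:62997827-62998076, plus strand: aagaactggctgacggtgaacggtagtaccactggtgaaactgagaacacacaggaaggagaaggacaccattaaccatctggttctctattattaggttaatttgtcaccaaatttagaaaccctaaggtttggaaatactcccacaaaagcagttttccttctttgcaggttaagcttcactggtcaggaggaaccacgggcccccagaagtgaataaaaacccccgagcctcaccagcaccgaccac
The Defb48 window held 2 copies and that of its neighbour none, although both genes were high in eWAT. Of the 25 beta-defensins with a RefSeq promoter, 12 held the letters (48%), and of all 27025 promoters 37.5% did. They were 1 of 14 patterns searched, and were chosen for display after the values were seen. A match describes the sequence and is no evidence of binding.

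Lipocalins, which carry small hydrophobic ligands such as retinoids, were called higher in 9 of 9 tested genes out of 12, and all 12 lie on chromosome 2. Lcn8 was at 4884 and 4168 CPM in eWAT and 0.337 and 0.345 in liver (13300-fold). Lcn10 was at 710.6 and 765.1 CPM and Lcn9 at 1854 and 2367, with no liver count for Lcn10 and 1 for Lcn9. In chromosome order Lcn8 (start 25653118), Lcn5 (25657932), Lcn6 (25676638) and Lcn10 (25682726) follow each other and were all at 434.2 CPM or more in both eWAT libraries. Beyond them Lcn3, Lcn11 and Lcn4 had at most 0.0967 CPM in any library, while Lcn9, which lies between Lcn11 and Lcn4, was among the highest. Lcn2, the iron-scavenging lipocalin that liver makes in inflammation, starts at 32384637 and was also high, at 3939 and 3485 CPM against 59.1 and 35.5 (78.5-fold).

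Unlike the lipocalins, of which none was lower, 3 gene neighbourhoods were split between the tissues. No split was seen among the 5 flavin monooxygenase (Fmo) genes of chromosome 1, where 3 were lower, 1 was not called and none was higher. Among ribonucleases of the RNase A family on chromosome 14, Rnase10 was at 1825 and 2279 CPM in eWAT against 0.253 and 0.172 in liver, and Rnase9 at 642.2 and 938.7 CPM had no liver count (at least 3090-fold). Next to these, Ang and Rnase4, which share a start at 51091077 in RefSeq, went the other way. Rnase4 was at 46.8 and 38 CPM in eWAT and 1068 and 938.2 in liver (23.7-fold lower in eWAT), and Ang, which codes for angiogenin, was at 13.6 and 5.03 against 711.7 and 439.9 CPM (61.9-fold lower). In all 7 of the 9 tested family members were called higher and 2 lower.

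The serine protease inhibitor genes on chromosome 12 showed the same division. Of 23 Serpina genes there, 18 were tested, with 13 called lower in eWAT, 4 higher and 1 not called. Serpina1f was at 836.6 and 832.1 CPM in eWAT with 1 count in each liver library, and Serpina16 at 434.2 and 387.8 CPM had none (at least 1610-fold). Both lie between Serpina6 and Serpina1b, which were liver genes. Serpina6, the gene for corticosteroid-binding globulin, was at 8.06 and 0.826 CPM in eWAT against 385.4 and 386.8. Serpina1b, an alpha-1-antitrypsin gene, was at 257.8 and 25.7 CPM in eWAT against 21850 and 21940 in liver. The carboxylesterases of chromosome 8 gave 13 genes lower, Ces5a as the only one higher (496.5 and 653.5 CPM in eWAT, 0.0843 and 0.0862 in liver), 1 not called and 4 not tested. Serpina1 and Ces1 genes are near-copies of each other, so the division of their reads within a family is uncertain, whereas the sum over the family does not depend on it.

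**Figure D2:**
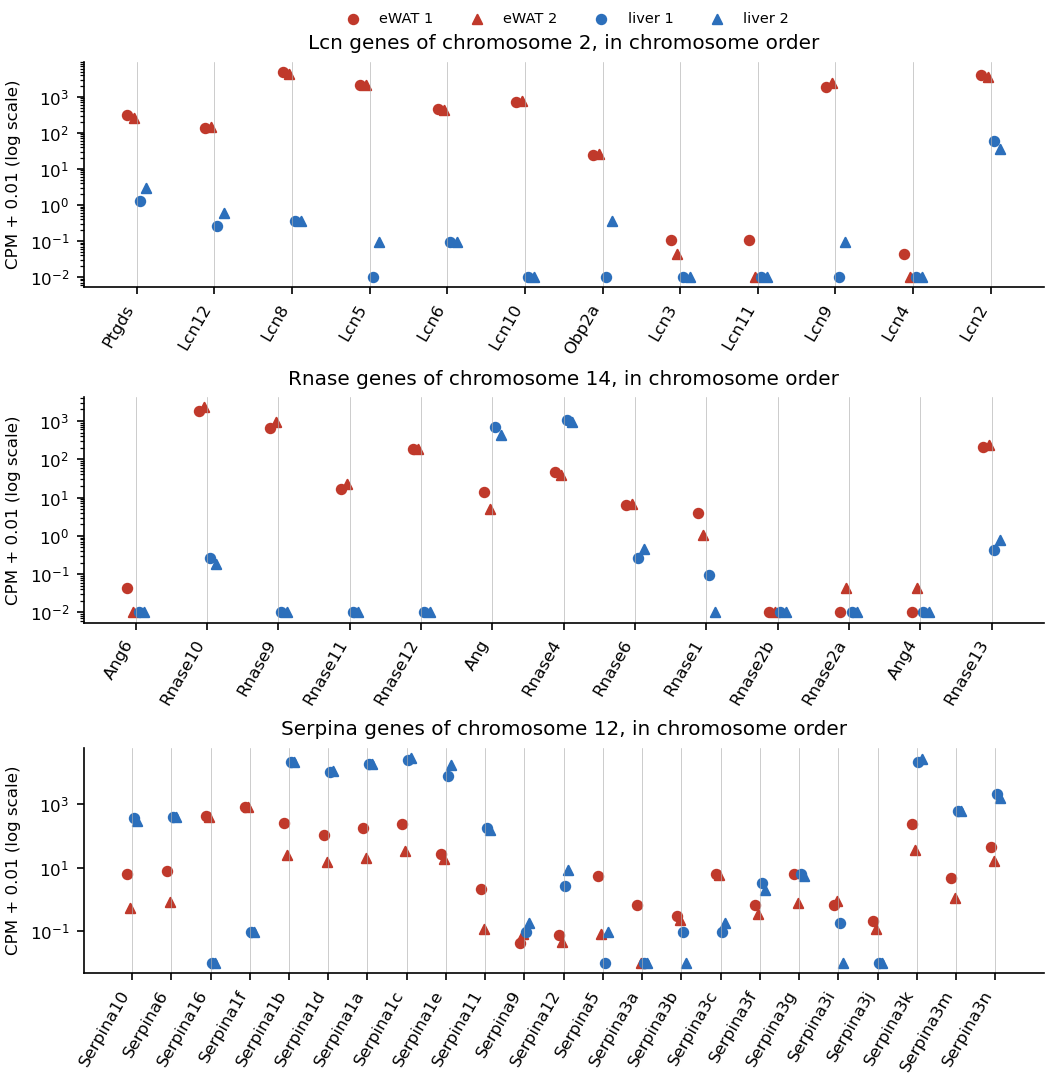
CPM plus 0.01 on a log axis for each Crtc1+/+ library (red for eWAT, blue for liver, circle for library 1, triangle for library 2), with the genes of 3 neighbourhoods in chromosome order and a gene without counts at the bottom. In the RNase panel Ang and Rnase4 have blue points above red, and in the Serpina panel Serpina16 and Serpina1f have red points above blue between liver genes.

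Protease inhibitors of the Kazal, Kunitz and WAP families protect sperm and duct from proteolysis, and 26 of 29 tested genes were called higher, 2 lower (Wfdc21 and Wfdc17, the latter not without liver 1) and 1 not called (Wfdc2). Spink8, at 1092 and 1158 CPM in eWAT and without a liver count, had the largest fitted rise of any gene with a mean log2 CPM of at least 5 (at least 4400-fold). Spint4 at 452.1 and 309.5 CPM and Eppin, a sperm-surface inhibitor, at 115.4 and 99.2 CPM also had no liver count. Of 6 tested cystatins, inhibitors of cysteine proteases, 4 were called higher as well (7 of 9 tested without eWAT 2), led by Cst11 at 2655 and 2665 CPM against 0.169 and 0.172. The broadly expressed cystatins Cst3 and Cstb were not called, with log2 fold changes of 0.79 and 0.14.

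The epithelium itself was visible in its junction and keratin genes, of which 11 of 16 were called higher, 1 lower and 4 not called. Cdh16, a cadherin of ducts derived from the nephric system, was at 276.6 and 302.5 CPM in eWAT and had no liver count (at least 1130-fold). Epcam was at 200.6 and 261 CPM against 0.843 and 1.47 (200-fold), and Krt19, which in liver marks bile ducts, at 202.6 and 148.1 against 3.71 and 4.22 (44.2-fold). Krt8 and Krt18, the keratin pair that hepatocytes also make, were not called, at log2 fold changes of -0.92 and -0.41, and under library-size scaling both values turned positive. Esrp2, a splicing regulator shared by epithelia and hepatocytes, was lower in eWAT at 38.9 and 47.8 CPM against 172.8 and 133.8.

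Transcription factors of the duct followed the same direction, with 9 of 11 tested genes higher, Foxa1 lower and Esr1 not called. Pax8, at 148.2 and 139.7 CPM, Pax2, at 37.9 and 45.7, and Emx2, at 29.3 and 44.2, have roles in forming the Wolffian duct, and none had a liver count. Etv5 and Etv4, ETS factors of the initial segment, were at 106.2 and 183.6 CPM and at 31 and 35.5 CPM in eWAT, 33.7-fold and 194-fold above liver. Foxa1 was at 0.258 and 0.0344 CPM in eWAT and 12.9 and 10.8 in liver.

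Hox genes, which record position along the body axis, were called higher in eWAT in 29 of 29 tested genes out of 38, with a median log2 fold change of 8.18 (4.97 with absent genes at their bound). With limma on FPKM, 15 were called higher at a pseudocount of 1 and 19 at 0.1, with medians of 1.26 and 2.94. Hoxb8 was the most abundant, at 181.5 and 177.6 CPM against 0.0843 and 0 in liver. Hoxb6 followed at 128.6 and 126 CPM, Hoxd8 at 79 and 113 CPM and Hoxb9 at 49 and 72.6 CPM. The most posterior members were at the other end, since Hoxb13, Hoxc11 and Hoxc13 had no count in any of the 4 libraries and Hoxa13 only 0.0645 and 0 CPM in eWAT.

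Rarer cells of the duct were represented too. All 6 basal cell genes were higher in eWAT, among them Krt5 at 56.9 and 57.6 CPM against 0.169 and 0.517 (167-fold) and the basal regulator Trp63 at 9.03 and 18.8 CPM with 1 count in each liver library. All 8 genes of clear and narrow cells were higher. Foxi1, the regulator of proton-secreting cells, was at 46.9 and 52.5 CPM and the ammonium channel gene Rhcg at 97.7 and 109.9 CPM, both without a liver count. Of 8 listed genes, 5 are subunits of the vacuolar proton pump, and Atp6v0d2 was the most abundant of these, at 20.9 and 40.4 CPM against 0.843 and 2.33. Genes for ductal fluid and solute transport were mixed, with 6 of 12 tested higher, 3 lower and 3 not called, and with 4 and 3 higher without liver 1 and without liver 2. Cftr, the chloride channel of the duct, was at 3.93 and 14.4 CPM with 1 liver count in all, whereas Aqp9, a glycerol and water channel of both duct and hepatocyte, was lower in eWAT, at 73.3 and 82.1 CPM against 427.6 and 444.7 (5.62-fold).

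Transcripts of testis and sperm were found in the same libraries. All 13 tested genes of 15 were called higher in eWAT, and the list held 0.161% and 0.0725% of the counts of eWAT 1 and 2. The protamine gene Prm2, whose product packs sperm DNA, was at 273.5 and 146.3 CPM in eWAT and 0 and 0.345 in liver. Ldhc, the lactate dehydrogenase of spermatogenic cells, was at 85.6 and 6.88 CPM with no liver count. These genes were higher in eWAT 1 than in eWAT 2, with a median ratio of 2.4 and 10 of 13 over 1.5-fold. Genes of motile cilia, which beat in the efferent ducts and also form the sperm tail, were called higher in 13 of 14, whereas limma on FPKM called 4 with a pseudocount of 1 and 6 with 0.1 (medians 0.46 and 1.21 in place of 7.13). Foxj1, their master regulator, was at 26.6 and 15 CPM against 0.674 and 0.345 (40.8-fold).

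Smooth muscle was also seen in eWAT. Of 16 contractile genes, 15 were called higher and Cald1 was not called, with a median log2 fold change of 5.65 beside 0.48 over all genes. Actg2, the enteric-type actin of duct and gut muscle, was at 1144 and 1106 CPM in eWAT and 0.253 and 0.776 in liver (2190-fold, adjusted p = 0.000265). Acta2, the vascular-type actin, was at 882.2 and 394.8 CPM against 2.78 and 3.28 (211-fold), and Myh11, the smooth muscle myosin heavy chain, at 560.1 and 226.9 against 0.253 and 1.38 (482-fold). Cnn1, which codes for calponin, was at 222 and 57.4 CPM against 0.169 and 0.517 (408-fold).

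The eWAT libraries differed from each other in this program. The median ratio of eWAT 1 to eWAT 2 over the 15 called genes was 2.4, 13 of them were over 1.5-fold higher in eWAT 1 and none in eWAT 2, but Actg2 was at nearly the same level in both. The list took 0.815% and 0.457% of the eWAT counts, and leaving out 1 library at a time gave 12 to 15 genes higher, with Cald1 called lower without eWAT 1. Myocd, the cofactor that switches on the contractile genes, was at 5.67 and 3.41 CPM and had no liver count. Receptors and channels of smooth muscle were higher in 12 of 14 tested genes (6 without liver 1) at much lower levels, but limma on log2(FPKM + 1) called 1 higher and 1 lower, with a median of 0.12 in place of 3.69. Of these genes Oxtr, the oxytocin receptor, was the most abundant by the mean, at 18.6 and 38.3 CPM with no liver count (at least 111-fold). In bulk tissue, fewer cells of a type and less RNA per cell cannot be told apart.

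Skeletal muscle genes gave no call among 16 tested by edgeR, with 0 at an unadjusted p under 0.05 and 0 by DESeq2, and the liver libraries were far apart. Acta1, the skeletal actin, was at 117.7 and 58.6 CPM in eWAT, 213.4 in liver 1 and 3.45 in liver 2. The list's median log2 fold change was -0.89 and became 0.59 under library-size scaling, so no direction is given. The list took 0.0796% and 0.0496% of the counts of eWAT 1 and 2, 0.0778% of liver 1 and 0.00149% of liver 2, and in the 4 Crtc1-/- libraries it took 0.0716% to 0.111%. Liver 2 thus stood apart from the other 7 libraries. Without liver 1, 15 of the 16 genes were called higher in eWAT, and without liver 2, none was called higher and 10 were called lower. The source of these transcripts was not tested.

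**Figure D3:**
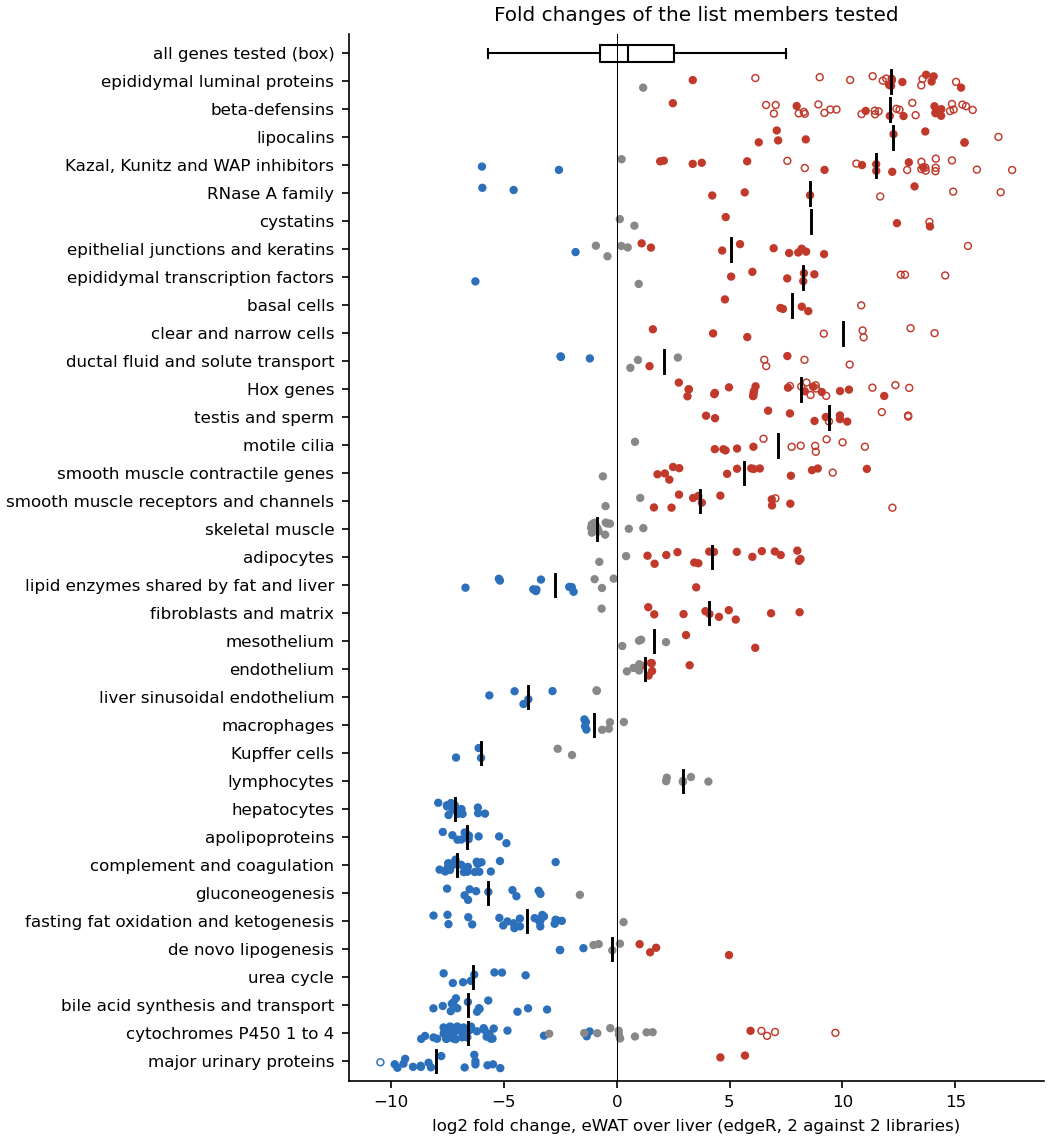
Log2 fold change of eWAT over liver for every tested member of each list, with red for called higher, blue for called lower, grey for not called, open circles for genes without a count in both libraries of a tissue (their position depends on the fit), and a bar at the median. The box at the top gives the quartiles and median (0.48) of all 15034 genes, with whiskers to 1.5 times the interquartile range.

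Fat itself was a small part of the eWAT libraries but was clearly above liver. Of 18 adipocyte genes, 16 were called higher, none lower and 2 not called, with a median log2 fold change of 4.2. The adipokine gene Adipoq was at 82.7 and 150.3 CPM in eWAT and 0.674 and 0.172 in liver (275-fold, adjusted p = 0.000409). Fabp4, the fatty acid carrier of fat, was at 334.3 and 716.3 CPM against 7.08 and 5.09 (86.4-fold), and adipsin (Cfd) at 547.1 and 737.8 against 4.3 and 0.689 (258-fold). Lep, which codes for leptin, was at 7.38 and 20.1 CPM with 1 liver count in all.

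Adipocyte genes stood in the opposite order to smooth muscle, with 10 of the 16 called genes over 1.5-fold higher in eWAT 2 and none in eWAT 1. Plin1, the coat protein of the adipocyte lipid droplet, was at 5.74 CPM in eWAT 1 and 28.6 in eWAT 2. The list summed to 0.297% and 0.481% of the counts in eWAT against 0.0403% and 0.0257% in liver. In Crtc1-/- eWAT the same genes took 5.11% and 2.54%.

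Lipase genes showed that not every gene of fat storage is above liver. Lpl, which draws fatty acids from lipoproteins, was at 141.5 and 305.8 CPM in eWAT and 12.4 and 13.7 in liver (17.1-fold). Lipe, the hormone-sensitive lipase, was at 61.7 and 94.3 against 34.5 and 26.1 (2.58-fold, not called without liver 2), and Pnpla2, the triglyceride lipase that starts lipolysis, was not called at 210.3 and 260.3 against 478.8 and 323.6 CPM (log2 fold change -0.77, which turned positive under library-size scaling). Pparg, the master regulator of adipocytes, was at 9.7 and 16 CPM in eWAT and 10.5 and 8.7 in liver, and its log2 fold change of 0.42 was not called. Enzymes and droplet proteins that fat and liver share were mostly lower in eWAT, with 10 of 14 called lower, 3 not called and Cidea alone higher, a call that was lost without eWAT 1, without liver 1 and without liver 2. Plin2, the droplet protein of the fasted liver, was at 36.9 and 24.4 CPM in eWAT against 1407 and 875.6 (37.2-fold lower), and Dgat2, which completes triglyceride synthesis, at 53.1 and 60.8 against 728.1 and 747.1 (13-fold lower). The median of that list was -2.73 and remained below 0, at -1.24, under library-size scaling.

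Genes of de novo lipogenesis divided within the list, 4 higher, 3 lower and 4 not called of 11. Acly, which supplies acetyl-CoA, was at 245.4 and 462 CPM in eWAT against 75.5 and 135 in liver (3.36-fold, not called without liver 1), and Elovl6 at 55.8 and 101.3 against 26.2 and 30 (2.79-fold, not called without eWAT 2, liver 1 or liver 2). Fasn, the fatty acid synthase, was level, at 264.2 and 269.2 CPM against 244.3 and 238.2. Me1 and Mlxipl, the carbohydrate-response factor, were 5.67-fold and 5.73-fold lower in eWAT. The list's median of -0.2 became 1.3 under library-size scaling, so no direction is given for the group. Without liver 1 only 1 of the 11 was called higher, and without eWAT 2 or liver 2 only 2 were.

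Stromal cells of the pad or duct wall were also above liver. Of 11 fibroblast and matrix genes, 10 were called higher, with Col1a1 at 902.5 and 513.1 CPM against 18.3 and 18.3 (38.7-fold) and Pdgfra at 45.6 and 82.6 against 1.94 and 2.16 (31.3-fold). Mesothelium was at low levels, with 2 of 6 genes called higher and Msln at 3.58 and 1.79 CPM against 1.94 and 2.59. Its median log2 fold change of 1.63 became -0.24 and -0.58 with limma on FPKM (pseudocounts 1 and 0.1), so no direction is given. Leaving out 1 library gave medians of 1.3 to 1.93, and library-size scaling called all 6 higher. General endothelial genes were called higher in 6 of 10, none lower, with a median of 1.26 (10 of 10 and 2.75 under library-size scaling), led by Emcn at 15.7 and 14.9 CPM against 1.52 and 1.72 (9.43-fold). Genes of the liver's own sinusoidal endothelium went the other way, 5 of 7 lower, with Clec4g at 0.903 and 0.275 CPM in eWAT against 32.4 and 27.4 (50.8-fold lower).

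Immune cells gave few calls. The Kupffer cell gene Clec4f was at 1.29 and 0.103 CPM in eWAT and 119.8 and 77.7 in liver (142-fold lower), and 3 of 5 Kupffer genes were lower (5 of 5 without eWAT 1). General macrophage genes had a median of -0.99 with 4 of 8 called lower, and the median became 0.49 with 2 called higher under library-size scaling, so no direction is given. Without liver 1 none of the 8 was called lower. Lymphocyte genes gave 0 calls among 6 tested by edgeR, with 2 at an unadjusted p under 0.05 and 3 called by DESeq2, and they were high in eWAT 1 only, with Cd79a of B cells at 18.2 and 0.172 CPM in eWAT against 1.52 and 0.345 in liver. The list took 0.0119% of the counts of eWAT 1 and 0.000494% of eWAT 2. Without eWAT 2 all 9 were called higher, and without eWAT 1 none was.

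Hepatocyte genes were lower in eWAT without exception, 16 of 16, with a median log2 fold change of -7.17. Alb was at 1848 and 279.7 CPM in eWAT and 181700 and 209600 in liver (184-fold lower, adjusted p = 0.0085). Hnf4a, the nuclear receptor that maintains hepatocyte identity, was at 13.3 and 3.65 CPM against 914.5 and 1008 (114-fold lower). Apolipoproteins (13 of 13), complement and coagulation factors (25 of 25), urea cycle genes (8 of 8) and genes of bile acid synthesis and transport (15 of 15) were all lower as well. Among them were Apoa1, the main protein of HDL, at 443.2 and 33 CPM against 28310 and 28140, the fibrinogen gene Fgb at 54.6 and 6.3 against 5435 and 4749, Cps1, the entry enzyme of the urea cycle, at 30.4 and 8.26 against 3114 and 4745, and Cyp7a1, the rate-limiting enzyme of bile acid synthesis, at 1.48 and 0.172 against 104.3 and 120.8 CPM.

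The promoters of Alb and Fgb, on the same build and with the same letters in capitals, are shown for liver.
Alb, chr5:90460620-90460869, plus strand: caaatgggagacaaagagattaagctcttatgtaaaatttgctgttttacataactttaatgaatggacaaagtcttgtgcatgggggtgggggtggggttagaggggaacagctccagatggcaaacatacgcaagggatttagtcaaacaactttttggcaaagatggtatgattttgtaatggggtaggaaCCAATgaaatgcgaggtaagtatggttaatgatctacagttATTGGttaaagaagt
Fgb, chr3:83049864-83050113, minus strand: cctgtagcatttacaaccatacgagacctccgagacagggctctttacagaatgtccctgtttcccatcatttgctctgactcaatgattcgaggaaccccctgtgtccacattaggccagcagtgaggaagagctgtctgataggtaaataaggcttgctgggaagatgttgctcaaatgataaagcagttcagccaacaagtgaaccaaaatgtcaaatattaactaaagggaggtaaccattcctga
Alb held 2 copies and Fgb none. Of the hepatocyte genes with a RefSeq promoter, 8 of 11 held these letters (72.7%), as did 5 of 20 complement and coagulation genes (25%), which lie on either side of the 37.5% of all promoters. Smooth muscle genes, higher in eWAT, held them in 8 of 12 (66.7%) and adipocyte genes in 4 of 14 (28.6%). Absence says only that the letters are not in these 250 bases.

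The liver program divided in the eWAT libraries themselves. Plasma protein genes were much higher in eWAT 1 than in eWAT 2. The median hepatocyte gene stood at 1.27% of its liver level in eWAT 1 and at 0.148% in eWAT 2, and 10 of 16 were over 5-fold higher in eWAT 1. Apolipoproteins were at 1.84% and 0.135% (11 of 13 over 5-fold), bile acid genes at 1.63% and 0.303% (9 of 15), and the 3 called Kupffer genes at 2.54% and 0.241% (3 of 3). The 3 called Kupffer genes and 10 of 16 hepatocyte genes thus shared the difference between the eWAT libraries. It was less common in urea cycle genes (3 of 8 over 5-fold) and in called genes of sinusoidal endothelium (1 of 5). Its source was not tested.

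Fat oxidation behaved otherwise. Of 24 genes of fasting fat oxidation and ketogenesis, 23 were lower in eWAT and Pdk4 was not called, but the median called gene was at 5.67% of liver in eWAT 1 and 4.85% in eWAT 2, and the ratio of eWAT 1 to eWAT 2 was under 2 in 18 of 23 genes (range 0.394 to 7.13). Cpt1a, which admits fatty acids to mitochondria, was at 73.8 and 114.3 CPM in eWAT against 536.8 and 726.4 in liver (6.72-fold lower), and Hadha, of the trifunctional protein, at 109.5 and 112.8 against 1077 and 1110 (9.84-fold lower). Cyp4a14, which oxidizes fatty acids at their far end, was closer to the plasma protein genes, at 73.7 and 16.9 against 13740 and 11370 (277-fold lower). Ppara, the nuclear receptor that drives the fasting response, was at 4.71 and 4.61 CPM against 92.4 and 128.4 (23.7-fold lower), and Fgf21, the fasting hormone, at 0.838 and 0.275 against 8.85 and 2.93, a call that was lost without liver 1.

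**Figure D4:**
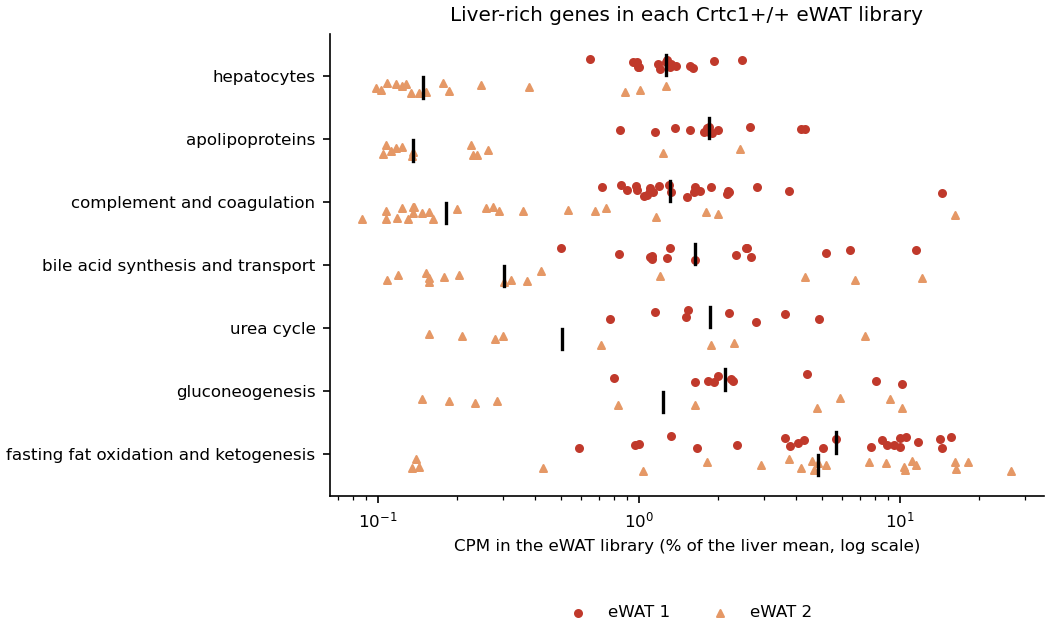
CPM of each gene called lower in eWAT as a percent of its liver mean, on a log axis, in eWAT 1 (red circles) and eWAT 2 (orange triangles), with a bar at the median (points without a count are left out, also from the bar). The medians are far apart in the hepatocyte list (1.27% and 0.148%), where the ranges overlap in part, and lie together in the fat oxidation list (5.67% and 4.85%).

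Of 11 gluconeogenic genes, 10 were lower in eWAT and Ppargc1a was not called. The ratio of eWAT 1 to eWAT 2 was mixed among the 10, over 5 in 3 genes and under 2 in 5 (range 0.388 to 13.2). Pck1, which commits carbon to glucose, was at 45.4 and 116.9 CPM in eWAT and 630.8 and 3354 in liver, so that the liver libraries differed from each other by more than the eWAT libraries did. G6pc, which releases free glucose, was at 1.64 and 0.585 CPM against 65.9 and 345.8 (185-fold lower). Pcx, shared with lipogenic tissue, was at 66.1 and 71.9 against 1467 and 1530 (21.7-fold lower).

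Drug-metabolizing and urinary proteins included the largest falls. Of 60 tested cytochromes P450 of families 1 to 4, 45 were lower, 10 not called and 5 higher (2 without liver 1, and 2 without liver 2), of which Cyp1b1, an extrahepatic form, was the most abundant, at 14.2 and 22.9 CPM against 0.253 and 0.345 (62.1-fold). Cyp2e1 was at 333 and 326.6 CPM in eWAT against 16830 and 21330 in liver (57.9-fold lower) and did not share the excess in eWAT 1. Major urinary proteins, carriers of pheromones, were lower in 18 of 20. Mup7 had the largest fitted fall among abundant genes, at 0.258 and 0.241 CPM against 60.5 and 368.6 (860-fold), although liver 1 and 2 differed widely. Mup4 and Mup6 were called higher in eWAT on at most 3 liver counts (Mup6 not without liver 1), at 1.71 and 3.27 CPM and at 2.48 and 3.99 CPM. The Mup genes are near-identical, so single members are uncertain.

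Pairs of genes for the same step showed which form each tissue used, expressed as the liver form's share of the summed FPKM of both. Fabp1 made up 99.8% and 99.9% of Fabp1 plus Fabp4 in liver and 13.8% and 0.824% in eWAT. Pyruvate kinase changed from 68.9% and 86.2% of the liver form Pklr to 1.58% and 1.44%, with Pkm in its place. The arginase pair was at 100% Arg1 in liver and at 48.9% and 11.9% in eWAT, where Arg2 stood at 26.6 and 25.6 CPM. For glycogen phosphorylase the liver form Pygl was at 36.2% and 45.2% in eWAT against 96.1% and 98.7%.

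Some pairs did not switch. Cpt1a remained the major form, at 87.3% and 98.2% of Cpt1a plus the muscle form Cpt1b in eWAT. Car3, a carbonic anhydrase of both fat and liver, was at 84.4% and 92.7% of Car3 plus Car2 in eWAT and 94.8% and 98% in liver. The creatine kinase pair separated the liver libraries instead, with the muscle form Ckm at 96.3% of Ckm plus Ckb in liver 1 and 32.3% in liver 2. Fabp1, Mat1a, Gls2 and Arg1 each took a higher share in eWAT 1 than in eWAT 2, the order that plasma protein genes also had.

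**Figure D5:**
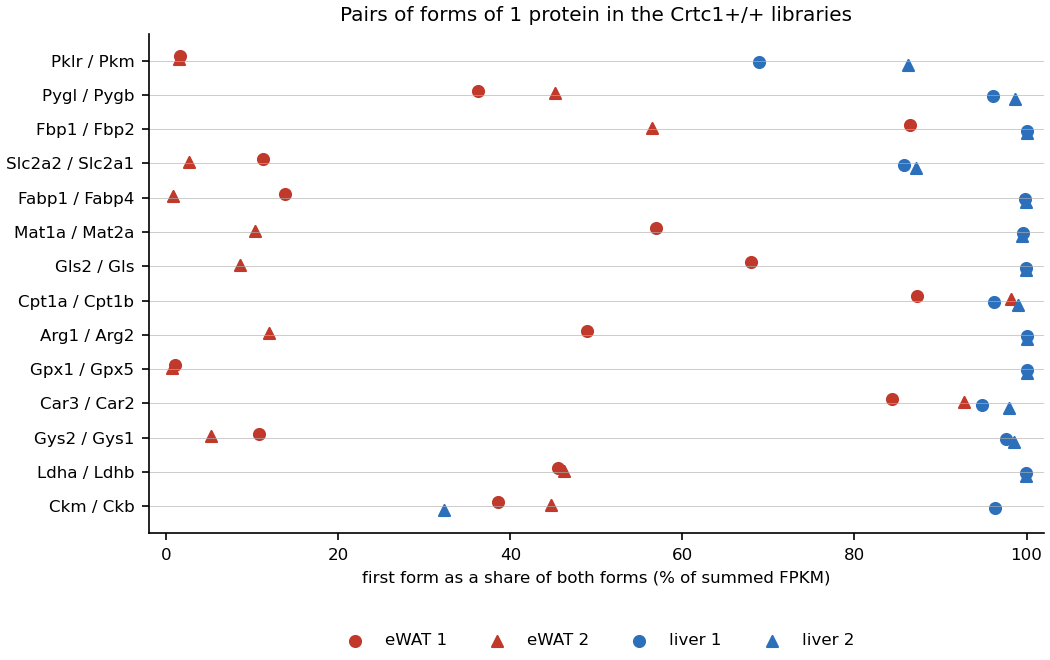
Share of the first-named form in the summed FPKM of both forms, in percent, for each Crtc1+/+ library (red for eWAT, blue for liver, circle for library 1, triangle for library 2). Most pairs separate by tissue, Cpt1a and Car3 are at 84.4% or more in all 4 libraries, and Ckm separates liver 1 (96.3%) from liver 2 (32.3%).

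Whether the tissue contrast differed between genotypes was tested as an interaction over all 8 libraries, in which 1081 of 15587 genes passed an adjusted p under 0.05 (6.94%), with the contrast higher in Crtc1+/+ for 492 genes (3.16%) and lower for 589 (3.78%). In the lipocalin list 9 of 9 genes had a higher contrast in Crtc1+/+, as did 14 of 35 beta-defensins and 10 of 20 luminal proteins, with none lower. Lcn8 differed by 17.65 on the log2 scale (adjusted p = 0.0095) and Gpx5 by 18.01 (adjusted p = 0.00959). These sizes rest on near-absent counts in 1 tissue. They exceed the log2 fold changes of 13.67 and 13.95 within Crtc1+/+, so in Crtc1-/- both genes were higher in liver. Lipocalins took 0.0412% and 0.0105% of the counts of Crtc1-/- liver 1 and 2. In Crtc1-/- eWAT 1 and 2 they took 0.027% and 0.00419%. The source of these liver counts was not tested. In the adipocyte list 6 of 18 genes had a lower contrast in Crtc1+/+, among them Cidec with a difference of -4.99 (adjusted p = 0.0183), and so had 7 of 10 endothelial genes and 9 of 14 shared lipid enzymes. These counts were not stable to single libraries, since without liver 1 of Crtc1+/+ no gene passed (2909 at an unadjusted p under 0.05). Tissue makeup moved with genotype, since luminal epididymal genes took 0.127% and 0.136% of the counts of the Crtc1-/- eWAT libraries against 7.77% and 9.23%, so the part of genotype and the part of tissue makeup cannot be told apart. Hepatocyte genes also took 10.6% of the counts of Crtc1-/- eWAT 2, against 0.522% of Crtc1-/- eWAT 1.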

How the data were processed

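RNA-seq of liver and eWAT was analysed as deposited. The authors' processing notes name HISAT, Bowtie2 and the build GRCm38.p6, and the counting tool and its version are not given in the sources used here. The authors deposited 1 table of estimated counts per gene, which were rounded to whole numbers, and 1 table of FPKM, which was used for levels between genes, pairs of forms and the limma alternative. Of 19348 genes, those passing filterByExpr were fitted with edgeR 4.0.16 (R 4.3.3), TMM scaling and the quasi-likelihood test with Benjamini-Hochberg adjustment. In simulated libraries, where 200 of 15034 genes carried a log2 difference of 2, it recovered 75% of them and made 10 false calls. Far fewer genes changed there than the 54.5% called here, so the 10 false calls do not give the error of this contrast. DESeq2 1.42.0 and limma 3.58.1 (pseudocounts 1 and 0.1), other filters and scalings, and leaving out each library were alternatives. With 2 libraries a group, an exact permutation test cannot go below p = 0.333, and p-values measure the spread between these samples only. Counting intervals are 95% and cover counting error.

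The members and lists were chosen with earlier results of these data known. Named were the 10 largest changes each way at a mean log2 CPM of at least 5, the 10 highest FPKM of each tissue, small lists whole, the 6 most abundant of longer lists, isozyme pairs and gene neighbourhoods. Crisp1, Npc2, Pate2, Pate4, Defb15, Wfdc2, Wfdc17, Wfdc21, Eppin, Hoxa13, Hoxb13, Hoxc11, Hoxc13, Lep, Plin1, Lipe, Pparg, Pdk4, Hadha, Ppara, Fgf21, Cyp1b1, Mup4 and Mup6 fall outside that rule and were chosen after their values were seen. Some members are not reported here.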

Additional observations from a re-analysis of the deposited data

Results flagged for a closer look

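The contrast of eWAT and liver differed between genotypes in 1081 genes by the interaction test of edgeR, but single libraries set that count (0 without liver 1 of Crtc1+/+). By list, the difference was found in 9 lipocalins, 14 beta-defensins and 10 luminal proteins, with the contrast higher in Crtc1+/+, and in 6 adipocyte genes, 7 endothelial genes and 9 lipid enzymes shared by fat and liver, with the contrast lower in Crtc1+/+. Groups of 2 libraries are too small for a test of single outlying values.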

How the results depend on the processing

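The count of 8187 genes fell to 4801 with limma on log2(FPKM + 1), and ranged from 5262 (without liver 1) to 8777 (without eWAT 2) when 1 library was left out. The share of calls higher in eWAT was 64.3%, and it was 49.6% with limma on log2(FPKM + 1), 47.3% with a pseudocount of 0.1 and 90% with library-size scaling. For the interaction, 1081 genes became 2056 with DESeq2 and 705 with library-size scaling, and leaving out 1 library gave 0 to 2261. The low counts were 0 without liver 1, 31 without liver 2, 408 without eWAT 1 and 140 without eWAT 2 of Crtc1+/+, and 192 and 241 without liver 1 and 2 of Crtc1-/-. The high count of 2261 came without eWAT 1 of Crtc1-/-. The cause was not tested. Library-size scaling reversed Krt18 to 1.08. Leaving out 1 library moved Acta1 between -1.29 (without liver 2) and 4.66 (without liver 1), and Ckm between -2.06 and 4.35 in the same way, both reversed without liver 1. Of 118 named genes that were called, at most 19 lost the call under at least 1 alternative. Krt18, Acta1 and Ckm were not called, so they had no call to lose.

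The sources do not say whether same-numbered liver and eWAT libraries came from 1 mouse. Across genes, the difference of eWAT 1 minus eWAT 2 correlated at 0.161 with that of liver 1 minus liver 2. With the replicate number as a block, 8303 genes were called in place of 8187, and 926 in place of 1081 for the interaction.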
